A study of Homo sapiens with 12 samples.

Results

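The clustered protocadherins are cell-surface proteins of neurons encoded by 3 neighbouring gene clusters, alpha, beta and gamma. Of the 28207 genes in the count table, 53 were members by symbol: 15 alpha, 16 beta and 22 gamma genes. They were measured by bulk RNA sequencing of cerebral organoids, which are brain-like tissues grown in culture, made from the H1 line of human embryonic stem cells, which is an established line. The groups were FEZ1-null organoids at day 60 (2 libraries), wildtype organoids at day 60 (2), FEZ1-null organoids at day 10 (4) and wildtype organoids at day 10 (4). FEZ1 encodes an adaptor of kinesin motors. The number of knockout clones is not stated, nor whether replicates were grown as separate cultures. Every p-value therefore measures the spread between libraries only, and part of that spread may be technical. Library names hold a code of unstated meaning, which is B16 in all day 60 libraries and in day 10 replicates 1 and 2, B27 in day 10 replicate 3 and B29 in day 10 replicate 4 of either genotype. Comparisons of days are therefore also given within B16.

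Each alpha and gamma gene contributes a variable exon, with its own promoter, that is spliced to constant exons shared by its cluster, whereas beta genes are single-exon genes. In a given neuron only some of the promoters are active, which gives neurons different combinations of surface isoforms that bind to the same isoform on another cell and serve self-avoidance of dendrites and axons. The C-type genes at the ends of the alpha and gamma clusters are known for a more uniform expression across neurons than the others. In organoid bulk RNA the choice of single cells is averaged, so the shares given here describe the tissue. Fewer cells of a type and less RNA per cell cannot be told apart in such samples.

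In the GENCODE annotation of GRCh38 the clusters lie on the plus strand of chromosome 5, alpha at chr5:140786136-141012347, beta at chr5:141051135-141249365 and gamma at chr5:141330571-141512981. Most of their promoters are known to carry a conserved sequence element with the core CGCT, a site where the insulator protein CTCF binds, and the promoters of PCDHAC2, PCDHB1, PCDHGC4 and PCDHGC5 are known to lack that element. RefSeq promoters of GRCh38.p14 matched 47 of the 53 members. The letters CGCT on the gene's strand, starting 30 to 100 bases before the transcription start, occurred in 43 of these 47 (91.5%), against 21.7% of the 27305 promoters of all genes. On the opposite strand they occurred in 9 of 47 members (19.1%), against 21.6% of all promoters. The strands were counted separately, their matches may overlap, and no other motif was searched. The first match lay 38 to 95 bases before the start, with a median of 60.0. PCDHA9, PCDHB5, PCDHB8 and PCDHGB2 had no match in this window, and PCDHA3, PCDHA13, PCDHB6, PCDHB11, PCDHGA12 and PCDHGC5 had no promoter entry.

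The bases around the match differed between the clusters, and are shown with CGCT in capitals. They are given for some members that held large shares of their cluster and for those with a match that rose between days in both genotypes. PCDHGA3 and PCDHGB5, the members with the smallest p between genotypes at day 60 and at day 10, are shown too. Most members that fell between days, including those with the largest falls, are not shown. In the alpha cluster 9 of 12 windows read gatgtCGCT, as in the following.
PCDHA2: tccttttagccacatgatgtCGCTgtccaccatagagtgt
PCDHA4: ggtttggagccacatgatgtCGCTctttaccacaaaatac
PCDHA10: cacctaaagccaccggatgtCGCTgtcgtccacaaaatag
In the beta cluster 11 of 12 windows read ggtggCGCT.
PCDHB2: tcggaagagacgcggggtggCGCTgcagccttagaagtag
PCDHB15: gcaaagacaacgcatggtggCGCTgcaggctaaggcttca
In the gamma cluster 10 of 19 windows read gcgcCGCT, among them those of PCDHGB4 and PCDHGB5, which were identical at 39 of 40 positions, whereas those of PCDHGA3 and PCDHGC3 held CGCT after other bases.
PCDHGB4: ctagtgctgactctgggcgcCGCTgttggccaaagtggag
PCDHGB5: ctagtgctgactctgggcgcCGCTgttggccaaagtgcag
PCDHGB6: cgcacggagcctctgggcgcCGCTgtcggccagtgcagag
PCDHGA10: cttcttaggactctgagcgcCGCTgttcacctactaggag
PCDHGA3: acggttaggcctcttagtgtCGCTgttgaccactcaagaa
PCDHGC3: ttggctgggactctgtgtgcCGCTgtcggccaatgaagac
The CGCT letters also occurred, within other surroundings, in the windows of PCDHB1, PCDHAC2 and PCDHGC4, which are known to lack the element. PCDHGC5, also known to lack it, had no promoter entry. The letters alone therefore do not mark the element. The windows of the C-type genes PCDHAC2 and PCDHGC4 are shown.
PCDHAC2: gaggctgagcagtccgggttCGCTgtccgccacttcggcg
PCDHGC4: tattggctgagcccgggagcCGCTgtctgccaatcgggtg
The PCDHGB4 window lies at chr5:141387613-141387652, the PCDHGB5 window at chr5:141397859-141397898, the PCDHAC2 window at chr5:140966361-140966400 and the PCDHGC4 window at chr5:141484948-141484987, all on the plus strand of GRCh38.p14. These matches describe letters and were not tested for binding.

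Library totals ranged from 15.7 M to 22.7 M counts, of which the members took 0.0448% to 0.0734%. FEZ1, the targeted gene, had 47.6 and 48.4 CPM, read counts scaled by library size and TMM factor, in FEZ1-null organoids against 240 and 197 CPM in wildtype organoids at day 60. At day 10 it had 19.4 to 22.7 CPM in FEZ1-null organoids and 40.5 to 49.0 CPM in wildtype organoids. FEZ1-null day 10 replicate 1 stood apart: ribosomal protein genes took 13.2% of its reads, and 4.84% to 9.87% of the reads in each of the other libraries. The wildtype day 10 libraries also differed among themselves: the summed level of 12 neural crest markers was 74.9 to 112 CPM in FEZ1-null and 90.5 to 1485 CPM in wildtype organoids of that day, and was highest in the 2 wildtype libraries with code B16.

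The beta cluster had the highest summed CPM in every library, and its sum was lower at day 60 than at day 10 in both genotypes. Sums and shares of clusters are not scaled by length. Exonic bases shared with no other plus-strand gene made up 100% of PCDHB5, but 48.8% of PCDHA1 and 35.6% of PCDHGB4. How reads in shared exons were counted is not stated, so the order of the clusters may in part reflect counting. Beta genes summed to 291 and 294 CPM in FEZ1-null organoids at day 60, and to 329, 380, 447 and 438 CPM in FEZ1-null organoids at day 10. In wildtype organoids they summed to 295 and 248 CPM at day 60, and to 377, 405, 409 and 404 CPM at day 10. The libraries of the 2 days did not overlap, and the log2 ratio of day 60 to day 10 means was -0.44 in FEZ1-null and -0.55 in wildtype organoids (-0.28 and -0.53 within B16).
Gamma genes summed to 159 and 168 CPM in FEZ1-null organoids at day 60 and to 125, 130, 154 and 154 CPM at day 10. In wildtype organoids the gamma sums were 204 and 158 CPM at day 60 and 152, 175, 146 and 146 CPM at day 10. Day 60 lay above day 10 in every FEZ1-null library, whereas the wildtype libraries of the 2 days overlapped. The same held within B16.
Alpha genes summed to 118 and 112 CPM in FEZ1-null and 135 and 118 CPM in wildtype organoids at day 60. At day 10 the alpha sums were 57.3, 108, 141 and 148 CPM in FEZ1-null and 132, 144, 141 and 137 CPM in wildtype organoids. The alpha libraries of the 2 days overlapped in both genotypes, and the low FEZ1-null value was that of replicate 1. Within B16 the FEZ1-null alpha sums did not overlap, with 118 and 112 CPM at day 60 above 57.3 and 108 CPM at day 10. The wildtype alpha sums within B16 did overlap, with 135 and 118 CPM at day 60 and 132 and 144 CPM at day 10. On the log2 scale the day 10 ratio of FEZ1-null to wildtype alpha means was -0.28 with that library and -0.06 without it, and within code B16 it was -0.73. As a share of all member counts, beta averaged 51.3% ± 0.0136 in FEZ1-null and 46.9% ± 0.609 in wildtype organoids at day 60 (SD, n = 2 each), and 61.3% ± 2.24 in FEZ1-null and 57.6% ± 1.38 in wildtype organoids at day 10 (n = 4 each). These sums were described without a test.

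**Figure D1:**
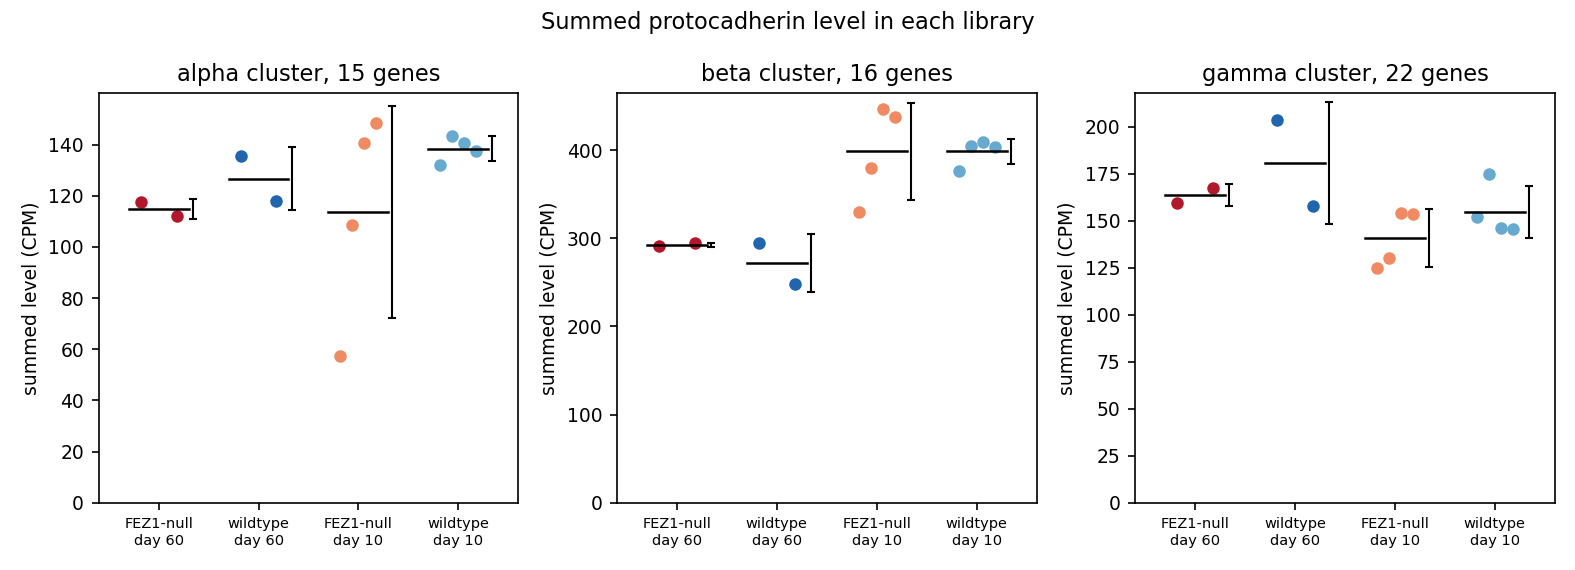
Summed level of the alpha, beta and gamma protocadherins, in CPM, in each library (points), with the group mean (line) and SD (bar beside it); groups run from FEZ1-null and wildtype day 60 to FEZ1-null and wildtype day 10. Beta sums at day 60 (248 to 295 CPM) lie below all day 10 sums (329 to 447 CPM), and FEZ1-null day 10 replicate 1 has the lowest alpha sum (57.3 CPM).

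Of the 53 members, 45 to 52 had at least 10 counts in a library, and 40 had so in all 12 libraries. PCDHB1, with 0 to 4 counts, was the one member that did not pass the filter on low counts, and 12 others fell under 10 counts in 1 to 5 libraries. In each cluster a few genes held most of the counts. PCDHB5 held the largest share of beta counts in 12 of 12 libraries, and PCDHB5, PCDHB2 and PCDHB15 together held 61.0% to 71.2% of them. PCDHA10 led the alpha cluster in the 8 day 10 libraries and PCDHA2 in the 4 day 60 libraries. PCDHGC3 led the gamma cluster in the 8 day 10 libraries, while PCDHGB6 led in both FEZ1-null and PCDHGB4 in both wildtype libraries of day 60.

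Levels can be set between genes only per length, for which CPM were divided by the exonic bases that no other plus-strand gene of the GENCODE annotation shares (2459 for PCDHGB4, 10002 for PCDHA10). PCDHB5 averaged 20.2 CPM per kilobase in FEZ1-null and 17.9 in wildtype organoids at day 60, and 34.3 in FEZ1-null and 32.3 in wildtype organoids at day 10. PCDHGB4 averaged 17.5 CPM per kilobase in FEZ1-null and 18.5 in wildtype organoids at day 60, and 5.71 in FEZ1-null and 6.46 in wildtype organoids at day 10. PCDHGC3 averaged 6.57 CPM per kilobase in FEZ1-null and 5.77 in wildtype organoids at day 60, and 10.53 in FEZ1-null and 12 in wildtype organoids at day 10. The order per kilobase thus differed between days: PCDHGB4 had the higher mean of the 2 gamma genes at day 60 and PCDHGC3 at day 10. PCDHA10, first among alpha genes by counts at day 10, came to 2.90 CPM per kilobase in FEZ1-null and 3.54 in wildtype organoids of that day. On this scale it lay below PCDHA2, at 5.39 in FEZ1-null and 6.74 in wildtype organoids, so the order by counts and the order per kilobase differ. The order of PCDHA10 and PCDHA2 rests on lengths of 10002 and 2626 bases. Lengths take in all annotated exons of a gene, whether or not they were transcribed here. The counts were made on hg19, and lengths from another annotation make this scale approximate.

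The number of genes that share a cluster evenly can be summarised as an effective number, the inverse of the summed squared shares. For alpha it was 7.79 ± 0.338 in FEZ1-null and 8.07 ± 0.109 in wildtype organoids at day 60 (SD, n = 2 each), and 7.03 ± 0.383 in FEZ1-null and 7.17 ± 0.206 in wildtype organoids at day 10 (n = 4 each). For beta it was 6.19 ± 0.0434 in FEZ1-null and 6.71 ± 0.192 in wildtype organoids at day 60, and 6.11 ± 0.656 in FEZ1-null and 6.47 ± 0.0422 in wildtype organoids at day 10. For gamma, with 22 genes, it was 5.62 ± 0.0817 in FEZ1-null and 6.54 ± 0.653 in wildtype organoids at day 60, and 7.59 ± 1.14 in FEZ1-null and 8.09 ± 0.822 in wildtype organoids at day 10. In the alpha cluster the day 60 libraries all lay above the day 10 libraries of their genotype, and in the gamma cluster they all lay below them. The alpha order rested on the C-type genes: without PCDHAC1 and PCDHAC2 the number was 6.53 in FEZ1-null and 6.60 in wildtype organoids at day 60, and 6.58 in FEZ1-null and 6.62 in wildtype organoids at day 10.

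**Figure D2:**
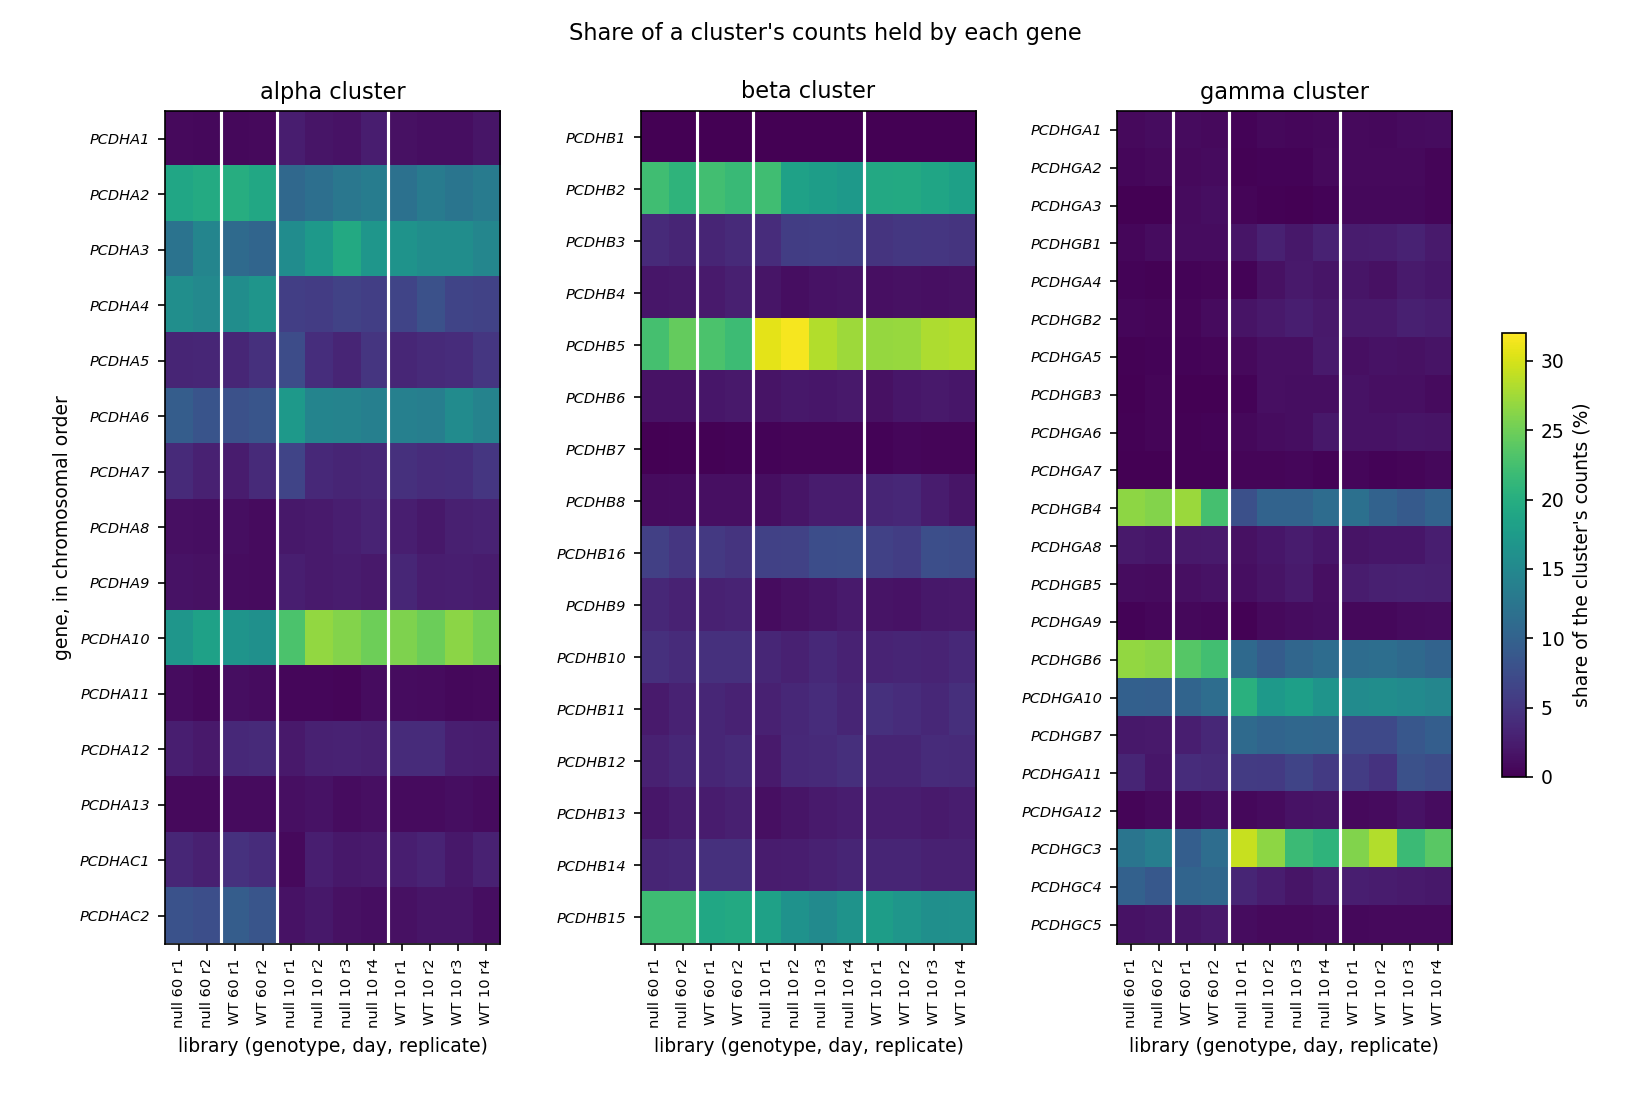
Share of its cluster's counts (colour, in percent) held by each gene (rows, in chromosomal order) in each library (columns, with white lines between FEZ1-null day 60, wildtype day 60, FEZ1-null day 10 and wildtype day 10). PCDHB5 leads beta in 12 of 12 libraries, and PCDHGB4 and PCDHGB6 are brighter at day 60, where PCDHGC3 is darker.

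How far 2 libraries differed in their choice was measured as the percent of a cluster's counts that would have to move to another gene to make their shares equal. In the gamma cluster this was 41.2% on average between days in FEZ1-null organoids (37.7% to 43.7% over 8 pairs) and 37.0% in wildtype organoids (33.0% to 40.5%). Between genotypes of the same day it was 8.52% at day 60 (6.22% to 10.6% over 4 pairs) and 9.78% at day 10 (6.11% to 16% over 16 pairs). Libraries of 1 group differed by 3.91% in FEZ1-null and 6.60% in wildtype organoids at day 60 (1 pair each), and by 6.58% to 14.3% in FEZ1-null and 4.07% to 8.77% in wildtype organoids at day 10. Counting error alone gives a mean of 3.33% for the pairs of genotypes at day 60 and 4.07% at day 10. In the gamma cluster every pair between days thus differed by more than any pair within a day, and the pairs between genotypes at day 10 overlapped the pairs within groups.
The alpha cluster gave 24.6% between days in FEZ1-null and 26.3% in wildtype organoids, and 6.04% and 6.55% between genotypes at day 60 and day 10. The beta cluster moved least between days, with 12.5% in FEZ1-null and 11.1% in wildtype organoids, and 5.15% and 5.59% between genotypes at day 60 and day 10. Beta pairs between days (9.60% to 14.9% in FEZ1-null, 9.63% to 12.3% in wildtype organoids) overlapped the pairs within FEZ1-null day 10, the highest of which, 10.7%, included replicate 1 of that group. Without FEZ1-null day 10 replicate 1 the differences between genotypes at day 10 were 5.33% for alpha, 4.58% for beta and 8.39% for gamma. Within code B16 alone the gamma difference between days was 42.4% in FEZ1-null and 36.0% in wildtype organoids. Pairs share libraries, and no test was made.

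**Figure D3:**
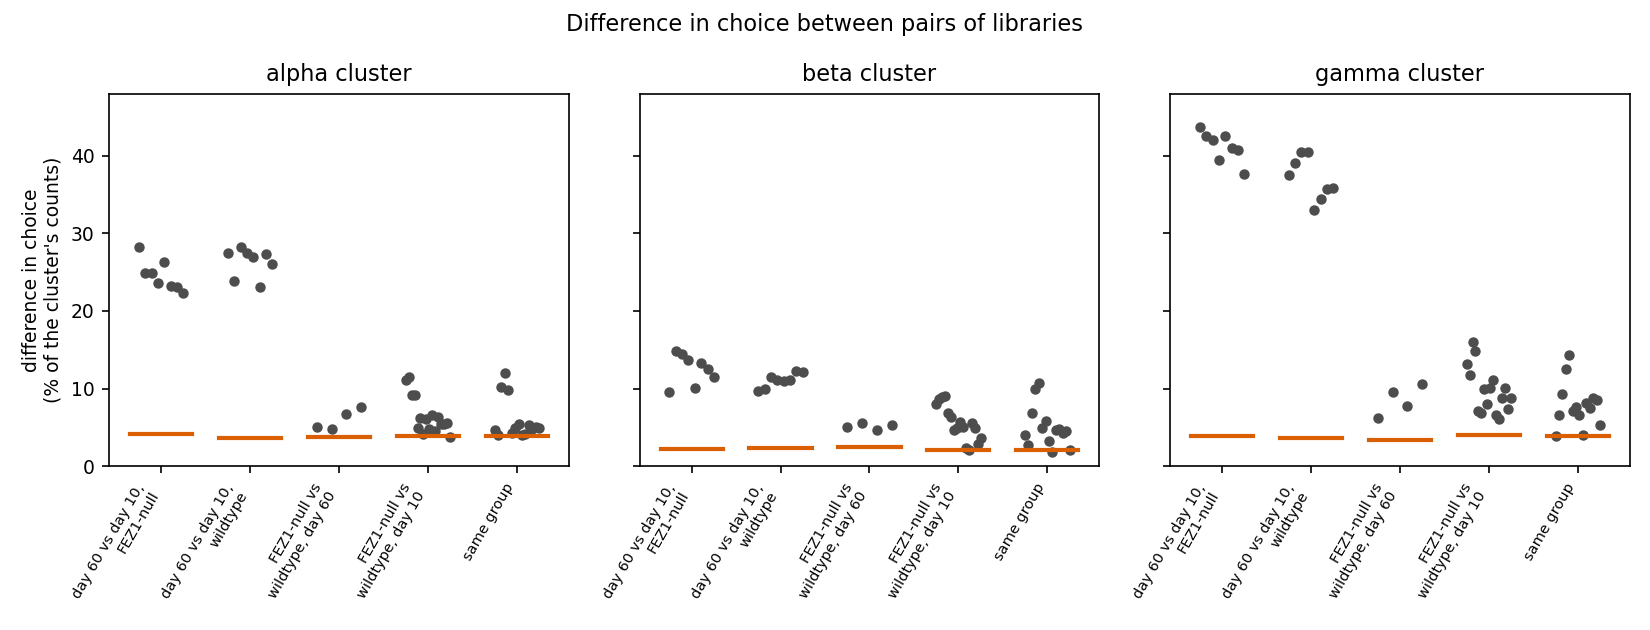
Difference in choice between pairs of libraries, as the percent of the cluster's counts to be moved (points, 1 per pair), for pairs between days, between genotypes of 1 day and within a group; orange lines give the mean expected from counting error. The gamma pairs between days lie between 33.0% and 43.7%, above all pairs within a day (3.91% to 16%).

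At day 60 against day 10, 6 members rose in both genotypes: PCDHAC2, PCDHGC4 and PCDHGC5, which are C-type genes, and PCDHA4, PCDHGB4 and PCDHGB6. Far more members fell. Of 52 members tested, 26 passed the test in FEZ1-null organoids (6 higher, 20 lower) and 28 in wildtype organoids (6 higher, 22 lower), by edgeR's quasi-likelihood test with a Benjamini-Hochberg adjusted p below 0.05 over 17757 genes. Across all genes 57.6% passed in FEZ1-null organoids (30.7% higher, 26.9% lower) and 55.4% in wildtype organoids (29.3% higher, 26.1% lower), so the share of members that changed was near the background. Within B16 the test passed 23 members in FEZ1-null organoids (10 higher, 13 lower; 58.3% of all genes) and 24 in wildtype organoids (6 higher, 18 lower; 52.4% of all genes). In FEZ1-null organoids it passed 14 members (6 higher, 8 lower; 40.5% of all genes) without day 60 replicate 1, and 33 (6 higher, 27 lower; 65.2% of all genes) without day 10 replicate 1. In wildtype organoids it passed 18 (6 higher, 12 lower; 42.3% of all genes) without day 60 replicate 2. The median log2 fold change of the members was -0.61 in FEZ1-null and -0.44 in wildtype organoids, against 0.03 and -0.01 over all genes. By cluster the median was -0.38 for alpha, -0.61 for beta and -0.72 for gamma in FEZ1-null organoids, and -0.21 for alpha, -0.47 for beta and -0.37 for gamma in wildtype organoids. The 17 members that fell in both genotypes were PCDHA1, PCDHA6, PCDHB3, PCDHB5, PCDHB7, PCDHB8, PCDHB11, PCDHB16, PCDHGA4, PCDHGA5, PCDHGA6, PCDHGA7, PCDHGB1, PCDHGB2, PCDHGB3, PCDHGB7 and PCDHGC3. A further 3 (PCDHB6, PCDHGA10 and PCDHGA11) passed, all lower, in FEZ1-null organoids and not in wildtype organoids, and 5 (PCDHA7, PCDHA8, PCDHA9, PCDHB2 and PCDHB15) in wildtype and not in FEZ1-null organoids. For 0 of these did the difference between genotypes pass the test of the interaction, which 0 of all 17757 genes passed. The other 21 members passed in neither, and 0 passed in opposite directions.

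**Figure D4:**
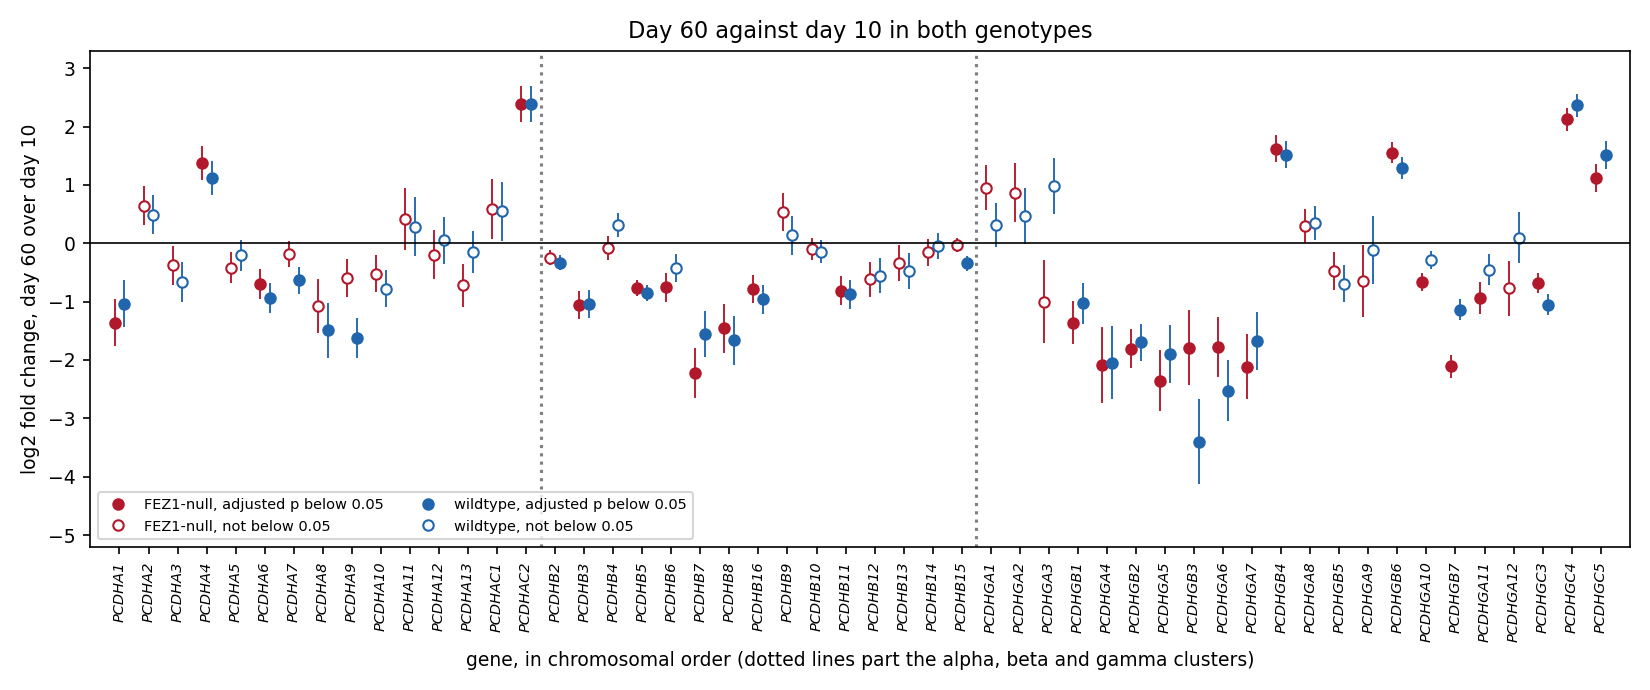
Log2 fold change of each tested member at day 60 over day 10 in FEZ1-null (red, left of each pair) and wildtype (blue) organoids, with standard errors, in chromosomal order; filled points have an adjusted p below 0.05. PCDHA4, PCDHAC2, PCDHGB4, PCDHGB6, PCDHGC4 and PCDHGC5 are the filled points above 0, and 7 adjacent genes from PCDHGB1 to PCDHGA7 are filled below 0 in both genotypes.

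Among the C-type genes, PCDHAC2, which in mice is the isoform of serotonergic neurons, had 9.45 and 8.64 CPM in FEZ1-null organoids at day 60, against 0.873, 2.21, 2.0 and 1.80 CPM at day 10. In wildtype organoids PCDHAC2 had 12.8 and 9.89 CPM at day 60, against 1.83, 2.61, 2.52 and 1.71 CPM at day 10. All day 60 libraries lay above all day 10 libraries, and the log2 fold change was 2.39 ± 0.31 (SE) in FEZ1-null organoids (adjusted p = 7.09e-05) and 2.38 ± 0.31 in wildtype organoids (adjusted p = 6.86e-05).
PCDHGC4, which in mice is required for the survival of cortical interneurons, had 15.8 and 14.7 CPM in FEZ1-null organoids at day 60, against 4.13, 3.38, 2.85 and 3.67 CPM at day 10. Wildtype organoids had 21.1 and 16.8 CPM at day 60, against 4.05, 4.22, 3.34 and 3.08 CPM at day 10. The days did not overlap in either genotype. Its log2 fold change was 2.12 ± 0.20 in FEZ1-null (adjusted p = 7.04e-06) and 2.36 ± 0.20 in wildtype organoids (adjusted p = 3.39e-06).
PCDHGC5, the last gene of the cluster, had 2.55 and 3.10 CPM in FEZ1-null organoids at day 60 against 1.28, 1.13, 1.33 and 1.48 CPM at day 10. Wildtype organoids had 3.59 and 3.43 CPM at day 60 against 1.02, 1.46, 1.23 and 1.2 CPM at day 10. Again the days did not overlap, with log2 fold changes of 1.11 ± 0.24 in FEZ1-null (adjusted p = 0.00208) and 1.51 ± 0.24 in wildtype organoids (adjusted p = 0.000261). PCDHAC2, PCDHGC4 and PCDHGC5 together held 4.61% and 4.90% of member counts in FEZ1-null and 5.75% and 5.91% in wildtype organoids at day 60, against 0.834% to 1.23% in FEZ1-null and 0.872% to 1.15% in wildtype organoids at day 10.

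PCDHGC3, whose product is known to bind the Wnt pathway scaffold Axin1 in mice, moved the other way. It had 19.8 and 22.9 CPM in FEZ1-null organoids at day 60, against 36.6, 34.7, 33.6 and 32 CPM at day 10. Wildtype organoids had 19.6 and 18 CPM at day 60, against 39.4, 49.5, 31.9 and 34.6 CPM at day 10. Every day 60 library lay below every day 10 library, and PCDHGC3 fell with a log2 fold change of -0.68 ± 0.18 in FEZ1-null (adjusted p = 0.00679) and -1.05 ± 0.18 in wildtype organoids (adjusted p = 0.000529). In FEZ1-null organoids the call was lost without day 60 replicate 1 (adjusted p = 0.0797). PCDHAC1, the remaining C-type gene, had 4.07 and 3.20 CPM in FEZ1-null organoids at day 60 against 0.465, 2.86, 2.85 and 3.47 CPM at day 10, and 6.25 and 4.79 CPM in wildtype organoids at day 60 against 3.56, 4.54, 2.98 and 4.05 CPM at day 10. It did not pass the test in either genotype.

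The other 3 genes that rose were variable isoforms, 1 of the alpha cluster and 2 of the gamma B group. PCDHGB4 and PCDHGB5 share more than 10% of their 100-base windows with another protocadherin transcript, so their counts are less certain than those of PCDHGB6. PCDHGB4 had 42.4 and 43.8 CPM in FEZ1-null organoids at day 60, against 9.77, 13.3, 15.8 and 17.3 CPM at day 10. Its wildtype levels were 55.5 and 35.6 CPM at day 60, against 17.9, 17.5, 13.2 and 14.9 CPM at day 10. Day 60 lay above day 10 in every library, with log2 fold changes of 1.62 ± 0.23 in FEZ1-null (adjusted p = 0.000132) and 1.52 ± 0.23 in wildtype organoids (adjusted p = 0.000209).
PCDHGB6 had 42.7 and 44.4 CPM in FEZ1-null organoids at day 60, against 13.6, 12.2, 16.2 and 17.4 CPM at day 10. Its wildtype levels were 48.1 and 35.3 CPM at day 60, against 17.1, 20.2, 16 and 14.9 CPM at day 10. The days were again separate, with log2 fold changes of 1.55 ± 0.18 in FEZ1-null (adjusted p = 3.49e-05) and 1.29 ± 0.18 in wildtype organoids (adjusted p = 0.000137). The pair held 52.6% and 53.4% of gamma counts in FEZ1-null and 44.9% and 50.9% in wildtype organoids at day 60. At day 10 it held 20.4% ± 1.68 in FEZ1-null and 21.3% ± 1.38 in wildtype organoids (SD, n = 4 each). PCDHGB5, which lies between them and whose promoter window differs from that of PCDHGB4 at a single position of those shown, had 1.64 and 1.63 CPM in FEZ1-null organoids at day 60 against 1.45, 2.16, 3.52 and 1.93 CPM at day 10, and did not pass the test of days (log2 fold change -0.47 ± 0.33, adjusted p = 0.238). In wildtype organoids PCDHGB5 had 2.71 and 2.52 CPM at day 60 and 3.79, 4.90, 4.21 and 4.05 CPM at day 10 (-0.69 ± 0.32, adjusted p = 0.0817).
PCDHA4 had 18.6 and 16.9 CPM in FEZ1-null organoids at day 60, against 3.43, 6.20, 8.92 and 8.81 CPM at day 10, and 21.3 and 19.7 CPM in wildtype organoids at day 60, against 8.64, 11.3, 9.20 and 8.61 CPM at day 10. It rose by 1.38 ± 0.30 on the log2 scale in FEZ1-null (adjusted p = 0.00205) and by 1.12 ± 0.30 in wildtype organoids (adjusted p = 0.00726). These 6 genes passed the test in each of the 20 alternative fits of either comparison, with a highest adjusted p of 0.0494 for PCDHA4.

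**Figure D5:**
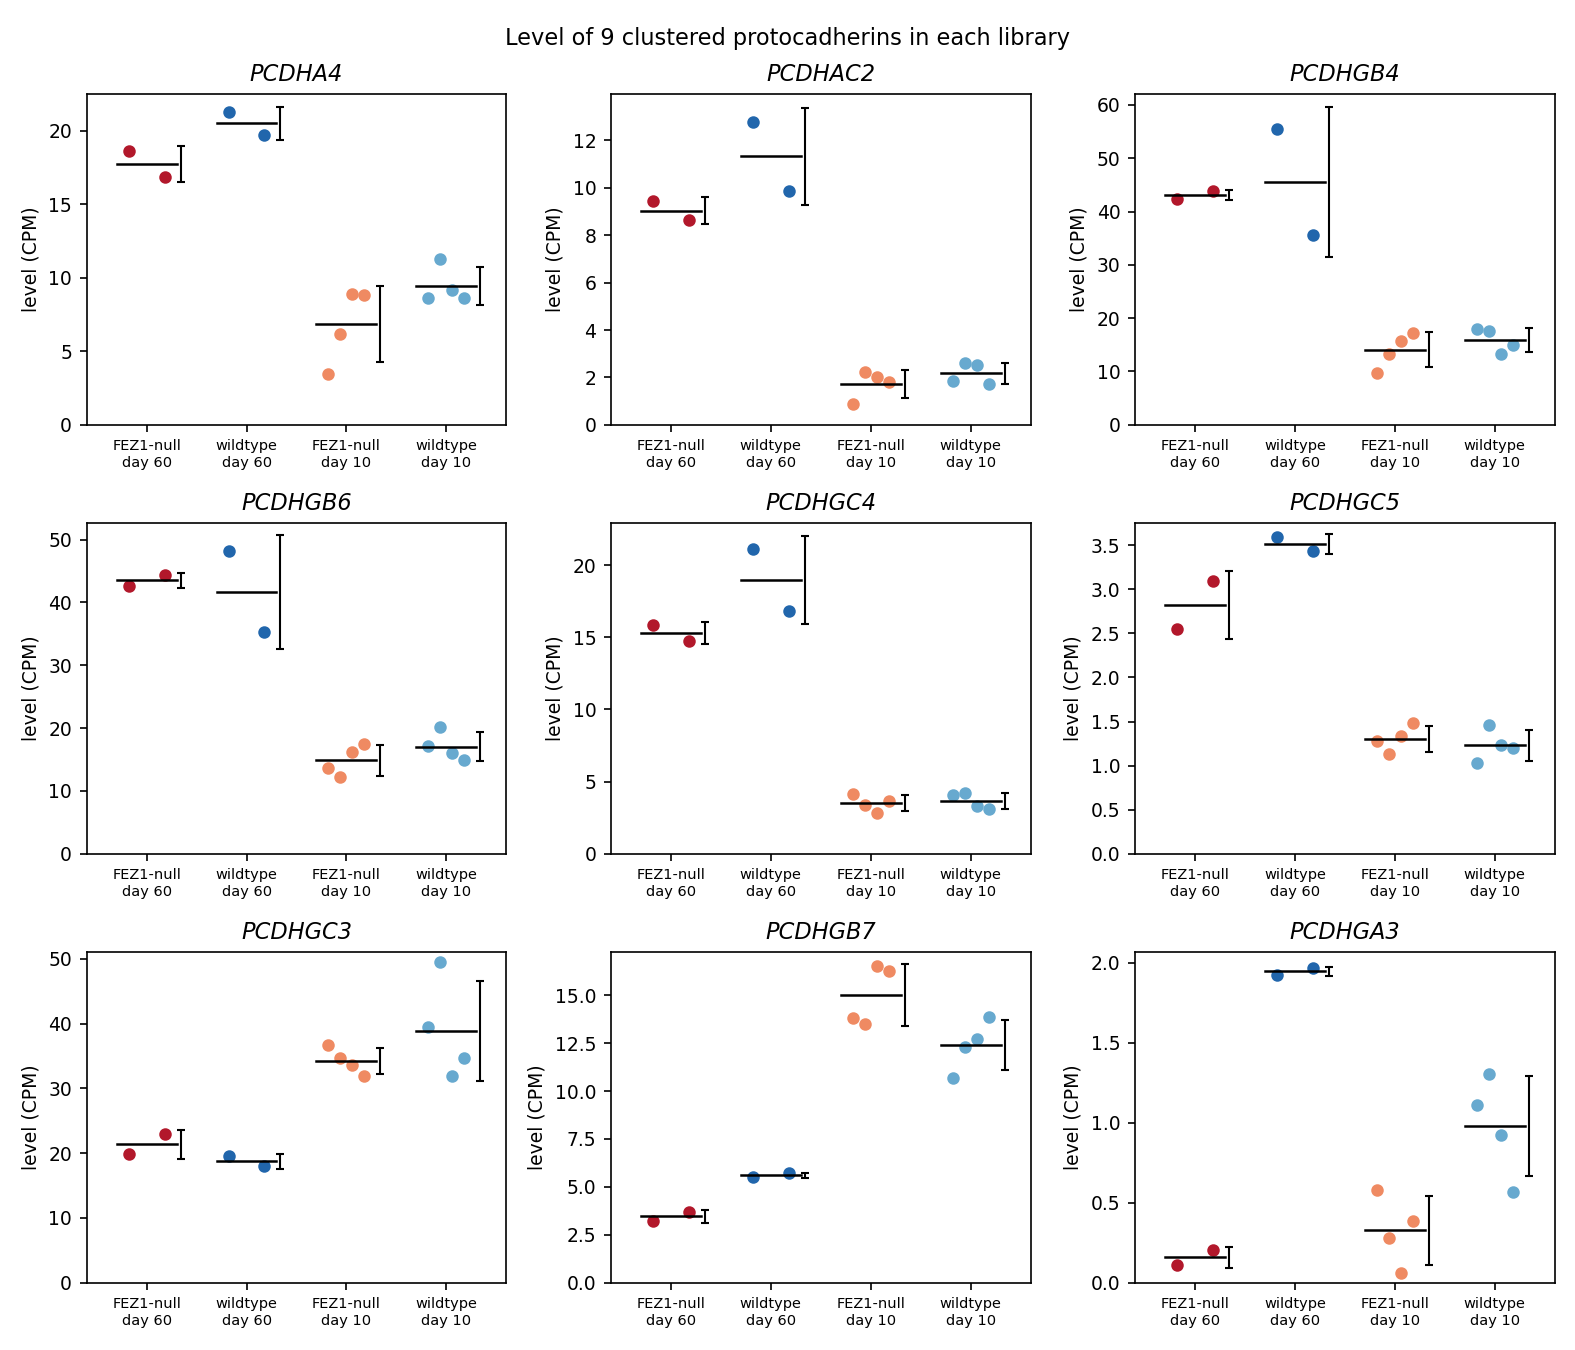
Level in CPM of 9 members in each library (points), with the group mean (line) and SD (bar beside it), for FEZ1-null day 60, wildtype day 60, FEZ1-null day 10 and wildtype day 10. The 6 genes of the upper rows are higher at day 60 in every library, PCDHGC3 and PCDHGB7 are lower, and PCDHGA3 is lower in FEZ1-null than in wildtype organoids of day 60.

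Genes that fell were found in all 3 clusters. Of all genes, 26.9% fell in FEZ1-null and 26.1% in wildtype organoids, and 30.7% and 29.3% rose, which is the background for the counts by cluster. In the gamma cluster a run of 7 neighbouring genes, from PCDHGB1 to PCDHGA7, fell in both genotypes, and lies directly upstream of PCDHGB4. All 7 had low levels (0.0566 to 4.76 CPM over the 12 libraries), and the run was picked out after its values were seen. Within it only PCDHGB2 passed in all 20 alternative fits in both genotypes. PCDHGB3 passed in 13 of the 20 and PCDHGA4 in 15 in FEZ1-null organoids, and PCDHGB1 in 13 in wildtype organoids. The other counts of the run were 17 to 20. The largest falls in this cluster were those of PCDHGB3 in wildtype organoids (-3.40 ± 0.73, adjusted p = 0.00213) and of PCDHGA5 in FEZ1-null organoids (-2.36 ± 0.53, adjusted p = 0.00251).
PCDHGB7 had 3.23 and 3.71 CPM in FEZ1-null organoids at day 60, against 13.8, 13.5, 16.5 and 16.3 CPM at day 10. In wildtype organoids it had 5.52 and 5.70 CPM at day 60, against 10.7, 12.3, 12.7 and 13.9 CPM at day 10. Day 60 lay below day 10 in every library, with log2 fold changes of -2.11 ± 0.19 in FEZ1-null (adjusted p = 5.58e-06) and -1.14 ± 0.18 in wildtype organoids (adjusted p = 0.000274). The difference between these, -0.97 ± 0.25, had the smallest p among members in the interaction of genotype and day and was not called (adjusted p = 0.520).
PCDHGA10 had 15.7 and 16.3 CPM in FEZ1-null organoids at day 60, against 25.4, 22.6, 27.9 and 25.4 CPM at day 10, and fell (-0.67 ± 0.15, adjusted p = 0.00315). In wildtype organoids its 20.9 and 18 CPM at day 60 lay below its 21.5 to 27.5 CPM at day 10 (-0.29 ± 0.15, adjusted p = 0.129).

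In the beta cluster, with 15 genes tested, 0 rose, while 7 fell in FEZ1-null and 8 in wildtype organoids. PCDHB5 had 65.6 and 71.8 CPM in FEZ1-null organoids at day 60, against 101, 120, 127 and 119 CPM at day 10. In wildtype organoids it had 67.7 and 54.3 CPM at day 60, against 102, 110, 115 and 114 CPM at day 10. The days did not overlap, and PCDHB5 fell with a log2 fold change of -0.77 ± 0.14 in FEZ1-null (adjusted p = 0.000836) and -0.85 ± 0.14 in wildtype organoids (adjusted p = 0.000447). PCDHB2 and PCDHB15, the next largest, moved less: PCDHB2 had log2 fold changes of -0.24 ± 0.13 in FEZ1-null (adjusted p = 0.116) and -0.33 ± 0.13 in wildtype organoids (adjusted p = 0.0422), and the wildtype call of PCDHB2 held in 5 of 20 alternative fits. PCDHB7 had the largest beta fall in FEZ1-null organoids (-2.22 ± 0.42, adjusted p = 0.000916) and PCDHB8 in wildtype organoids (-1.66 ± 0.42, adjusted p = 0.00553). Of 16 beta genes, 5 had more than 10% of their 100-base windows identical in another protocadherin transcript, up to 25.6% for PCDHB8, so reads of PCDHB2, PCDHB8, PCDHB9, PCDHB10 and PCDHB13 may in part have been divided or dropped.

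In the alpha cluster, with 15 genes tested, 2 genes rose in each genotype, while 2 fell in FEZ1-null and 5 in wildtype organoids. PCDHA10 had 19.8 and 20.5 CPM in FEZ1-null organoids at day 60, against 13.1, 29.1, 36.6 and 37.0 CPM at day 10. Its wildtype levels were 22.4 and 18.9 CPM at day 60, against 34, 35.7, 37.2 and 34.7 CPM at day 10. The wildtype days did not overlap and the FEZ1-null days did, through day 10 replicate 1, and neither change passed the test (adjusted p = 0.180 in FEZ1-null and 0.0578 in wildtype organoids). PCDHA6 fell in both, with log2 fold changes of -0.70 ± 0.26 in FEZ1-null (adjusted p = 0.0352) and -0.94 ± 0.26 in wildtype organoids (adjusted p = 0.00976), and its FEZ1-null call held in 12 of 20 alternative fits. PCDHA9 fell in wildtype organoids, with 1.41 and 1.06 CPM at day 60 against 3.31 to 4.45 CPM at day 10 (-1.63 ± 0.34, adjusted p = 0.00187). In FEZ1-null organoids PCDHA9 had 1.81 and 1.68 CPM at day 60 against 1.51 to 3.40 CPM at day 10 (-0.60 ± 0.33, adjusted p = 0.135).

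The tissue changed at the same time. Of 17 pan-neuronal markers, 16 rose in FEZ1-null organoids, and 9 rose and 1 fell in wildtype organoids. Their summed level was 6945 to 7171 CPM in FEZ1-null and 6160 to 7949 CPM in wildtype organoids at day 60, against 887 to 1178 CPM in FEZ1-null and 934 to 3307 CPM in wildtype organoids at day 10. The wildtype day 10 libraries were uneven, with 2863 and 3307 CPM in B16, 934 CPM in B27 and 965 CPM in B29. Mesenchyme markers (11 genes) summed to 686 to 868 CPM in FEZ1-null and 2064 to 4292 CPM in wildtype organoids at day 60, and to 332 to 458 CPM in FEZ1-null and 381 to 1582 CPM in wildtype organoids at day 10. Pluripotency markers (6 genes) summed to 4.37 to 5.21 CPM in FEZ1-null and 2.03 to 5.20 CPM in wildtype organoids at day 60, and to 1639 to 2451 CPM in FEZ1-null and 1282 to 2004 CPM in wildtype organoids at day 10. Radial glia markers (12 genes) summed to 3378 to 3573 CPM in FEZ1-null and 2762 to 2882 CPM in wildtype organoids at day 60, and to 3667 to 4269 CPM in FEZ1-null and 3319 to 3705 CPM in wildtype organoids at day 10. Forebrain markers (7 genes) summed to 1337 to 1339 CPM in FEZ1-null and 1311 to 1634 CPM in wildtype organoids at day 60, and to 933 to 1114 CPM in FEZ1-null and 496 to 977 CPM in wildtype organoids at day 10. Neural crest markers were at 29 to 51.2 CPM in FEZ1-null and 39.7 to 95.5 CPM in wildtype organoids at day 60. NANOG had 0 counts in the 4 day 60 libraries and in 5 of 8 day 10 libraries. TDGF1 had 0 counts in most libraries of either day, and 4 of the 6 pluripotency markers passed the filter on low counts. DCN, LUM, POSTN and COL3A1 had 0 counts in some day 10 libraries. Of the markers tested, 6 of 11 mesenchyme genes rose in FEZ1-null and 9 of 11 in wildtype organoids, and all 4 pluripotency genes tested fell in both. Of 12 neural crest genes, 1 rose and 3 fell in FEZ1-null organoids, and 1 rose and 9 fell in wildtype organoids. The 12 radial glia genes split, with 6 higher and 3 lower in FEZ1-null and 4 higher and 4 lower in wildtype organoids. So did the 7 forebrain genes, with 2 higher and 3 lower in FEZ1-null and 3 higher and 3 lower in wildtype organoids. The part of these changes in the protocadherin result was not tested.

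Related gene groups were described with the same fits, in which 30.7% of all genes rose and 26.9% fell in FEZ1-null organoids and 29.3% rose and 26.1% fell in wildtype organoids. Of 19 genes of locus architecture and DNA methylation, 1 rose and 5 fell in FEZ1-null organoids and 1 rose and 6 fell in wildtype organoids at day 60, with median log2 fold changes of -0.15 and -0.32. DNMT3B, a methyltransferase known to methylate clustered protocadherin promoters in mice, fell with a log2 fold change of -2.66 ± 0.24 in FEZ1-null (adjusted p = 5.05e-06) and -2.99 ± 0.24 in wildtype organoids (adjusted p = 2.64e-06). The maintenance methyltransferase DNMT1 fell by 0.98 ± 0.15 on the log2 scale in FEZ1-null and by 0.87 ± 0.15 in wildtype organoids, and the demethylase TET3 rose by 1.88 ± 0.31 in FEZ1-null and 1.57 ± 0.31 in wildtype organoids. CTCF itself had log2 fold changes of -0.15 ± 0.17 (adjusted p = 0.463) in FEZ1-null and -0.16 ± 0.17 (adjusted p = 0.436) in wildtype organoids and is named because of the motif above, with its values seen. Of 12 non-clustered protocadherins, 5 rose and 2 fell in FEZ1-null and 4 rose and 1 fell in wildtype organoids, with medians of 1.26 and 0.45. PCDH9 rose by 2.21 ± 0.31 in FEZ1-null and 1.96 ± 0.31 in wildtype organoids, and PCDH18 fell by 4.07 ± 0.58 in FEZ1-null and 3.35 ± 0.56 in wildtype organoids. Of 16 reported cytoplasmic partners and effectors, 5 rose and 4 fell in FEZ1-null and 5 rose and 3 fell in wildtype organoids, with medians of 0.03 and 0.17. Of 15 classical cadherins and catenins, 8 rose and 4 fell in FEZ1-null and 7 rose and 4 fell in wildtype organoids, with medians of 0.50 and 0.19. In the comparisons of genotypes and the interaction 0 genes of these lists were called. Of all genes, 0.0225% were called between genotypes at day 60, 0.124% at day 10 and 0 in the interaction.

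Between genotypes no clustered protocadherin passed the test. At day 60, 0 of 52 members were called in FEZ1-null against wildtype organoids, while 0.0225% of all genes were. At day 10, 0 of 52 were called, while 0.124% of all genes were, and the interaction called 0 members and 0 of all genes. At an unadjusted p below 0.05 there were 3 members at day 60 (5.60% of all genes), 3 at day 10 (12.3%) and 3 in the interaction (7.15%). DESeq2 called 1 member at day 60, PCDHGA3 (0.774% of all genes), 0 at day 10 (2.68%) and 0 in the interaction (0.441%). The values leaned to the lower side in FEZ1-null organoids, with 38 of 52 below wildtype at day 60 (median -0.25, against -0.01 over all genes) and 40 of 52 at day 10 (median -0.20, against -0.01). By cluster the day 60 medians were -0.17 for alpha, -0.05 for beta and -0.43 for gamma, and the day 10 medians -0.32 for alpha, -0.02 for beta and -0.21 for gamma. Members of 1 library vary together, so these counts are a description. The day 10 values include FEZ1-null day 10 replicate 1, which stood apart and had the lowest sum of its group in each cluster. With a library left out, the day 10 log2 ratio of summed levels ran from -0.44 to -0.06 for alpha. It ran from -0.06 to 0.08 for beta and from -0.18 to -0.07 for gamma. The alpha value of -0.06 is the one without that replicate.
Libraries of the genotypes did not overlap for 28 members at day 60 (4 higher and 24 lower in FEZ1-null), against 46.5% of all genes (24.1% higher, 22.4% lower). At day 10 they did not overlap for 3 members, PCDHA7, PCDHGA1 and PCDHGB5, all lower in FEZ1-null, against 5.0% of all genes (2.67% lower).

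PCDHGA3, an isoform of the gamma A group, had the smallest p of any member at day 60. It had 2 and 4 counts in FEZ1-null organoids, against 37 and 39 counts in wildtype organoids, or 0.113 and 0.203 CPM against 1.93 and 1.97 CPM. At day 10 it had 10, 6, 1 and 6 counts in FEZ1-null organoids, against 25, 25, 18 and 10 counts in wildtype organoids. The day 60 groups lay far apart, and at day 10 the highest FEZ1-null library lay at the level of the lowest wildtype library. The log2 fold change at day 60 was -3.55 ± 0.71 (adjusted p = 0.260). That of day 10 was -1.57 ± 0.47 (adjusted p = 0.226), and neither was called. PCDHGA3 passed at day 60 with DESeq2 (-3.62, adjusted p = 0.00896) and with the day 60 libraries fitted alone (-3.55, adjusted p = 0.0369, with 0.780% of all genes called), and over all alternatives its adjusted p ranged from 0.00896 to 1. Within codes, its mean log2 CPM differed between FEZ1-null and wildtype organoids of day 10 by -1.34 in B16, -2.63 in B27 and -0.46 in B29.
PCDHGB5, the member with the smallest p at day 10, had 1.45, 2.16, 3.52 and 1.93 CPM in FEZ1-null organoids, against 3.79, 4.90, 4.21 and 4.05 CPM in wildtype organoids. All FEZ1-null libraries lay below all wildtype libraries. Its log2 fold change was -0.90 ± 0.25 (adjusted p = 0.226, ranging from 0.0331 to 0.915 over the alternatives), and within codes the difference of mean log2 CPM was -1.23 in B16, -0.25 in B27 and -1.03 in B29. The authors' deposited table of FEZ1-null against wildtype covers 52 members, and its header does not name its libraries. In that table PCDHGB5 also had the smallest adjusted p (0.0811) and 0 members were below 0.05. Its log2 fold change for PCDHGA3, -1.56, was that of DESeq2 at day 10 (-1.56) and not at day 60 (-3.62). The table is therefore read here as a comparison at day 10.
PCDHA7 had 3.78, 4.04, 4.67 and 5.27 CPM in FEZ1-null organoids at day 10, against 5.92, 5.84, 5.86 and 7.02 CPM in wildtype organoids (-0.47 ± 0.18, adjusted p = 0.326). PCDHGB7 at day 60 had 3.23 and 3.71 CPM in FEZ1-null organoids, against 5.52 and 5.70 CPM in wildtype organoids (-0.69 ± 0.20, adjusted p = 0.475). PCDHGA11 had 5.21 and 3.3 CPM in FEZ1-null organoids, against 8.39 and 6.0 CPM in wildtype organoids of that day (-0.76 ± 0.30, adjusted p = 0.737). The fold change of PCDHGA11 was -0.46 without FEZ1-null day 60 replicate 2 and -0.48 without wildtype day 60 replicate 1. PCDHB15 had 64.4 and 64.9 CPM in FEZ1-null organoids, against 56.3 and 48.3 CPM in wildtype organoids of day 60 (0.31 ± 0.14, adjusted p = 0.927), and its fold change was 0.20 without wildtype day 60 replicate 2. With the B16 libraries alone, 4 members were called at day 10, PCDHA4, PCDHB8, PCDHGA2 and PCDHGB5, all lower in FEZ1-null organoids, while 11.5% of all genes were called (8.01% lower). In that subset the wildtype libraries have the highest neural crest, pan-neuronal and mesenchyme marker levels of day 10, and the lowest forebrain and pluripotency levels. Pan-neuronal markers summed to 2863 and 3307 CPM in them, against 934 and 965 CPM in the B27 and B29 wildtype libraries. One of the FEZ1-null libraries of the subset is the one that stands apart. The part of these libraries in the result was not tested. With the B27 and B29 libraries alone edgeR called 0 members, against 0.773% of all genes.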

How the data were processed

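Bulk RNA-seq counts of 12 organoid libraries were analysed. Raw counts per gene symbol were deposited by the authors; STAR, HTSeq, DESeq2 and hg19 are named in the submitters' processing notes, and versions, annotation, strand and the handling of reads in exons shared within a cluster are not stated in these sources. Reads of antisense transcripts therefore cannot be told apart. The authors' normalized signal equals the count over 1 factor per library (100% of values, relative tolerance 1e-06) and was not used further. The authors' deposited log2 fold changes and p-values were used only where their table is named, and the Wald score they deposited was not used. Library totals were 15.7 M to 22.7 M.

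The rule for members was a match of the symbol to the alpha, beta and gamma clustered protocadherin names. The members, marker and gene lists were chosen with earlier results of these data known. All 12 libraries entered 1 edgeR 4.0.16 quasi-likelihood fit (R 4.3.3, TMM, filterByExpr over 4 groups, robust) of 17757 genes. Tests were two-sided and genes with a Benjamini-Hochberg adjusted p below 0.05 were called; a standard error is the log2 fold change over the square root of F. CPM use library size times TMM factor, and log2 CPM a prior count of 2. The fit was tested on simulated counts. Named genes are the members called between genotypes, the top 3 of each cluster by CPM, the C-type genes, the 5 smallest p of each comparison, up to 4 called per direction and cluster between days, and up to 3 of each other list. Lengths and overlaps come from GENCODE v29 and promoters from RefSeq. Alternatives were RLE and upper quartile factors, no filter, DESeq2 1.42.0, a block on replicate number or code, single codes, the libraries of 1 day, and each library left out. The libraries of a group all differed by more than counting noise.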

Additional observations from a re-analysis of the deposited data

Results flagged for a closer look

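Of 84 sets of 4 day 10 libraries examined, in which chance flags about 1 in 20, there were 3 with 1 library far from the others. PCDHGB3 had 0.407 CPM in FEZ1-null day 10 replicate 1, against 1.78 to 1.87 CPM in the other FEZ1-null libraries of that day. PCDHA7 had 7.02 CPM in wildtype day 10 replicate 4, against 5.84 to 5.92 CPM in the other wildtype libraries. The beta cluster summed to 377 CPM in wildtype day 10 replicate 1, against 404 to 409 CPM in the other wildtype libraries of that day.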

How the results depend on the processing

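Between genotypes, the count of members called left 0 in 3 cases: 4 at day 10 with the B16 libraries alone, and 1 at day 60 (PCDHGA3) with DESeq2 and with the day 60 libraries alone. With each library left out it stayed at 0 at both days and in the interaction. The count called between days was 14 (without FEZ1-null day 60 replicate 1) to 33 in FEZ1-null and 18 (without wildtype day 60 replicate 2) to 33 in wildtype organoids with a library left out. With the replicate number as a block it was 23 in FEZ1-null (9 higher, 14 lower) and 21 in wildtype organoids (6 higher, 15 lower), and 0 between genotypes and in the interaction. The correlations of same-numbered day 10 libraries were 0.12, -0.08, 0.30 and -0.10. With so few libraries in a group, these values cannot show whether libraries were paired. Replicate 3 of either genotype shares code B27 and replicate 4 shares code B29. With the B16 libraries alone it was 23 in FEZ1-null organoids (10 higher, 13 lower; 58.3% of all genes) and 24 in wildtype organoids (6 higher, 18 lower; 52.4% of all genes). Leaving out both B16 wildtype libraries of day 10 gave 26 in FEZ1-null and 24 in wildtype organoids. For all but the day 10 comparison this alternative was added after the data were seen. The share of all genes called also moved between fits, in FEZ1-null organoids from 57.6% in the main fit to 65.2% without day 10 replicate 1. That share is not given for the replicate block, for this last fit or for the wildtype count of 33, so those counts are not set against it. The calls of 6 genes that rose held in every alternative in both genotypes, whereas those of 7 of 20 genes that fell did so in FEZ1-null and 9 of 22 in wildtype organoids.

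Without the C-type genes the alpha ratio of day 60 to day 10 in wildtype organoids was -0.27 on the log2 scale. The effective number of alpha genes was then 6.53 in FEZ1-null and 6.60 in wildtype organoids at day 60, and 6.58 in FEZ1-null and 6.62 in wildtype organoids at day 10. That of gamma genes was 3.79 in FEZ1-null and 4.56 in wildtype organoids at day 60. The difference in choice between days was then 21.1% for alpha in FEZ1-null, 22.7% for alpha in wildtype and 33.6% for gamma in wildtype organoids. The gamma ratio of genotypes at day 10 was -0.36 with the B16 libraries alone, and the gamma ratio of days in FEZ1-null organoids was 0.38 with library size alone. With a library left out, the alpha ratio of days in FEZ1-null organoids ran from -0.21 (without day 10 replicate 1) to 0.17. Other factors shifted the median gene by at most 0.07 on the log2 scale. Where a day 60 library was left out, the lone library of its group was assumed to vary like the other groups. The cause of these changes was not tested. Members with few counts limit what could be detected between genotypes.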
